A study of Populus davidiana with 6 samples.

Results

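The genes described here were almost unread in leaves of unstressed aspen plants and were present in every leaf sample taken after a brief air-drying treatment. A gene was included where it spanned at least 300 bp of genome, its mean over the controls was under 1 FPKM, every air-dried value was at least 2 FPKM, and the lowest air-dried value was at least 2 times the highest control value. FPKM, the deposited unit, is a fragment count corrected for transcript length and sequencing depth, and a gene's level is the sum over its transcripts. The rule was met by 40 genes of the 40537 listed. Because these measured values chose the members, their control and air-dried levels are given as a description, and no test of that difference is offered as support.

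RNA was sequenced from leaves of the aspen Populus davidiana, cultivar Seogwang9, whose drought sensitivity the labels give as tolerant and whose stage they give as seedling. All plants had been regrown from internodes on MS medium (a mineral and vitamin mix for tissue culture) with sucrose and the auxin naphthalene acetic acid, and were about 6 weeks old at treatment. The 3 control libraries came from plants without the treatment, and the 3 air-dried libraries came from plants that were taken out of the medium, rinsed in sterile water and left uncovered for about 10 minutes. Both groups are leaves of 1 cultivar grown in vitro, which limits them as a model of drought in soil. The labels do not say whether the controls were also lifted and rinsed, so drying, uprooting and rinsing cannot be told apart. They do not say either whether the 3 samples of a group were separate plants, so the spread between samples may be technical. In pooled leaf tissue, more RNA per cell and more cells with the RNA cannot be told apart.

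Plants that lose water faster than they take it up respond through abscisic acid, a hormone that closes stomata, and through calcium, jasmonate and mechanical signals. These pathways act on transcription factors that switch on further genes, among them genes for protective proteins and for enzymes of hormone synthesis. Genes with little transcript in watered tissue and a fast rise under stress are a known feature of such responses in plants. The gene name column of the files was empty, and no table used here pairs the accessions with names or functions, so no member is given a role and the leaf label could not be checked against marker genes. Members are given by their place on the authors' reference, whose build is not stated in the files or labels, and only the pair with the highest levels is given by accession. That reference carries accessions of the POPTR form, which belong to Populus trichocarpa, so positions and gene models may differ in Populus davidiana.

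The libraries were not alike in ways that crossed the groups. Rank correlations over transcripts averaging 1 FPKM or more lay between 0.817 and 0.863 within each of 2 sets, controls 1 and 2 with air-dried 1 and control 3 with air-dried 2 and 3. They lay between 0.733 and 0.773 across the sets. The labels name no batch. Read totals were not analysed here, but the steps between low FPKM values gave sequencing depths of 0.899 for air-dried 1 up to 1.33 for control 3 when control 1 is set to 1. The median level of the 22356 genes averaging 1 FPKM or more was between 11.8 and 12.6 FPKM in the 6 libraries.

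Among genes with a level above 0, the members were in the low part of the range in the controls and were spread over much of it after drying. Their median level was 0.593, 0.550 and 0.544 FPKM in controls 1, 2 and 3 and 5.53, 5.76 and 5.77 FPKM in air-dried 1, 2 and 3. Summed over the 40 members, the level was 23.7, 23.7 and 24.7 FPKM in the controls and 423, 404 and 375 FPKM in the air-dried libraries. The leading pair gave 144, 131 and 103 FPKM of the air-dried sums. Each group was thus narrow beside the distance between the groups, which the rule itself required. In the controls, 13 members had a single value of 1 FPKM or more and no member had more than 1 such value, the highest being 1.61 FPKM. Among all genes spanning at least 300 bp with a mean above 0, the members' mean levels were at or below the 23.6th percentile in the controls and at the 33.4th to 91.8th percentile after drying, with a median at the 45.4th. These percentiles leave out genes at 0. Of the 16827 genes of that span with a control mean under 1 FPKM, 9862 were at 0 in every control. The median control mean of the 16827 was 0, against 0.655 FPKM in the members, so most members were not among the lowest genes listed.

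**Figure D1:**
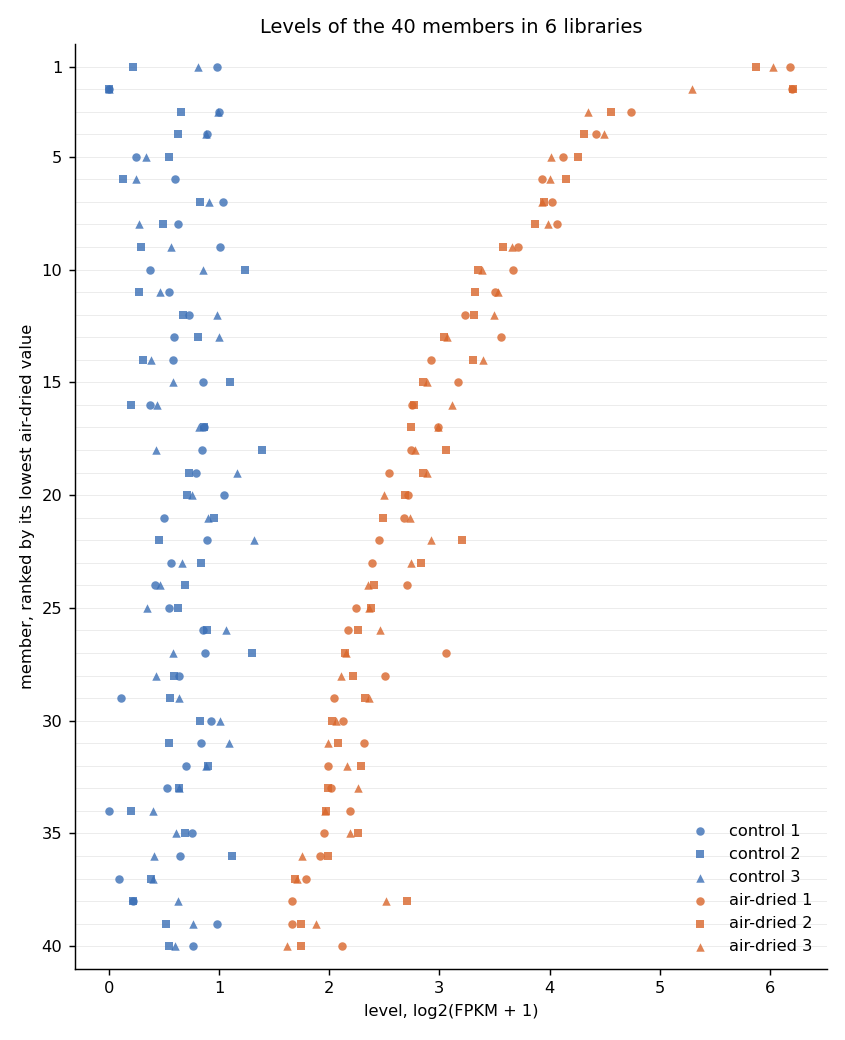
Level of each of the 40 members in each library as log2(FPKM + 1), with members ranked from top to bottom by their lowest air-dried value. Blue points are the 3 control libraries and orange points the 3 air-dried libraries, with a marker shape per replicate number, and the groups do not overlap in any member because the rule excluded overlap.

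The highest air-dried mean, and the highest value in the lowest air-dried sample, belonged to POPTR_0018s08320, a single-transcript gene of 597 bp on the plus strand of chromosome 18 (9245946 to 9246542). Its values were 0.968, 0.161 and 0.750 FPKM in the controls and 71.7, 57.8 and 64.5 FPKM in the air-dried libraries. The means were 0.626 ± 0.417 FPKM and 64.7 ± 6.95 FPKM (SD, n = 3 each), a ratio of 103. The 3 air-dried samples differed little, with a coefficient of variation of 10.7%, and placed a nearly silent gene above 91.8% of the genes compared. Of the genes on its sides, the one before was listed at 0 throughout, and the one after, 23452 bp away, had 9.75 ± 0.582 FPKM in the controls and 11.6 ± 0.733 FPKM after drying (SD, n = 3 each; limma adjusted p = 0.125).

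POPTR_0017s01120.r1, on the plus strand of chromosome 17 (798970 to 802712), was listed at 0 in all 3 controls and had 72.5, 73.3 and 38.3 FPKM after drying. It was the only member at 0 in every control, and no fold is given for it because Cufflinks can write a 0 where its estimate failed. Its 1 transcript was assembled from the reads and is not marked known. It lies almost wholly within a locus on the other strand (798972 to 803482) that holds a known transcript and stayed at 0.373 FPKM or less in every library. Strand use in the counting is not stated, so reads of these overlapping loci may not have been told apart. Air-dried 3 was the low sample, and the highest air-dried value was 1.91 times the lowest.

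Of the 40 members, 9 had a lowest air-dried value of at least 10 FPKM, 9 had one from 5 to under 10 FPKM and 22 had one under 5 FPKM. Next in rank after the leading pair, a gene on chromosome 2 (93065 to 94085), had 0.999, 0.567 and 0.989 FPKM in the controls and 25.7, 22.5 and 19.4 FPKM after drying. A minus-strand gene of chromosome 18 (8591115 to 8592969) had 0.856, 0.537 and 0.838 FPKM in the controls and 20.4, 18.9 and 21.5 FPKM after drying. Both were thus near 1 FPKM in at least 1 control and near 20 FPKM in every air-dried sample, at ratios of means of 26.5 and 27.3. The second of them lies 652976 bp from POPTR_0018s08320, with 34 listed genes between them.

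On chromosome 6 a pair of members were direct neighbours on the plus strand, 3783 bp apart. The first (11398834 to 11399764) had 0.183, 0.457 and 0.263 FPKM in the controls and 16.5, 18.1 and 15.2 FPKM after drying. The second (11403548 to 11404485) had 0.509, 0.0869 and 0.185 FPKM in the controls and 14.3, 16.8 and 15.1 FPKM after drying. Their spans of 931 and 938 bp and their levels were close to each other, their ratios of means were 55.01 and 59.1, and air-dried 2 was the highest sample for both. The files do not tell whether they are copies whose reads could be mixed up. This was the only pair of members with no listed gene between them.

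Another member on chromosome 6 (14032629 to 14037350) had 1.04, 0.767 and 0.871 FPKM in the controls and 15.3, 14.5 and 14.3 FPKM after drying, the most even of all members with a coefficient of variation of 3.59% in the air-dried samples. One more on that chromosome (22192804 to 22193878) had 0.537, 0.406 and 0.208 FPKM in the controls and 15.8, 13.6 and 14.8 FPKM after drying. Both had the same air-dried mean of 14.7 FPKM from control means of 0.894 and 0.384 FPKM. On chromosome 8 a member (9866336 to 9868873) had 1.01, 0.223 and 0.471 FPKM in the controls and 12.1, 10.9 and 11.6 FPKM after drying. On chromosome 7 a member (828453 to 830545) had 0.290, 1.36 and 0.802 FPKM in the controls and 11.7, 9.19 and 9.47 FPKM after drying. In these last genes the controls differed from each other by more than the air-dried samples did in proportion, with control 1 highest in the first and control 2 highest in the other.

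The shortest member, on the minus strand of chromosome 6 (3440346 to 3440877, 532 bp), had 0.496, 0.233 and 0.299 FPKM in the controls and 6.57, 8.88 and 9.53 FPKM after drying. A second short one, on chromosome 18 (609436 to 610164) had 0.0778, 0.467 and 0.553 FPKM in the controls and 3.12, 4.004 and 4.12 FPKM after drying. In both of these short genes air-dried 1 was the low sample, as it was in 15 of the 40 members, while it was the high sample in 17. The only member off the numbered chromosomes lay on scaffold 815 (486 to 2077) and had the largest ratio of highest to lowest air-dried value, 2.55, with 2.16, 5.52 and 4.73 FPKM against 0.158, 0.159 and 0.540 FPKM in the controls.

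Among the 39 members with a control value above 0, the ratio of group means ran from 3.42 to 103 with a median of 9.498. With the member listed at 0 counted in the top class, 20 members had a ratio of at least 10, 13 a ratio from 5 to under 10 and 7 a ratio under 5. A stricter measure, the lowest air-dried value over the highest control value, had a median of 6.02 and was at least 4 in 29 of 40 members.

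The members differed in how even they were after drying. The coefficient of variation over the 3 air-dried samples was under 10% in 11 members, from 10% to under 20% in 23 and 20% or more in 6, with a median of 13.5%. The median was 9.80% in all 16303 genes spanning at least 300 bp with every air-dried value at least 2 FPKM and an air-dried mean no higher than that of the top member. That pool reaches higher typical levels than the members, 12.9 against 5.58 FPKM in median air-dried mean. The widest spread belonged to a gene on chromosome 17 (789284 to 790146), with 7.32, 3.41 and 3.43 FPKM after drying and 0.824, 1.45 and 0.497 FPKM in the controls. Air-dried 1 stood apart from the other air-dried samples there, and it is also the only air-dried library of its set.

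The rule compared every air-dried value with every control value, so each of the 2 sets of libraries had to show the difference, and the values within them are a description of its size. The median difference in log2(FPKM + 1) over the members was 1.97 between air-dried 1 and the mean of controls 1 and 2, and 2.00 between the mean of air-dried 2 and 3 and control 3. Each rests on 1 library on one side. The smallest member difference was 0.911 within the first set and 0.947 within the second. Over all tested genes the medians were 0.0199 and 0. For POPTR_0018s08320 the differences were 5.59 and 5.15. They were furthest apart in the chromosome 1 member at 26234150 to 26235708, at 1.63 and 2.496, whose control 2 value of 1.61 FPKM was the highest control value of any member.

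The fit across all genes (limma on log2(FPKM + 1), Benjamini-Hochberg adjusted p under 0.05) called 5.6% of the 22356 tested genes higher and 7.44% lower in air-dried leaves. All 40 members passed the filter on low values, through their air-dried levels, and all 40 were called higher. The rule used the same contrast, so nothing is read from that count. All 40 members had every air-dried value above every control value by construction, against 15.9% of tested genes. The members' log2 difference ran from 1.01 to 5.90 with a median of 1.97, beside a median of 0.00801 over all tested genes, and it understates the change of genes this low because of the pseudocount of 1. The 5.90 belongs to POPTR_0017s01120.r1, whose zeros in the controls may be failed estimates, and is not read as a fold. The highest value of another member was 5.37, for POPTR_0018s08320.

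Membership turned on the limits for many genes. Of 16827 genes that spanned at least 300 bp with a control mean under 1 FPKM, 16607 stayed under 2 FPKM in every air-dried library. A further 128 reached 2 FPKM in 1 air-dried library, 72 of them in air-dried 1, and 45 did so in 2. The 47 that did so in all 3 held the 40 members and 7 genes that failed the ratio limit. The members were therefore 0.238% of the genes that were nearly silent in the controls.

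**Figure D2:**
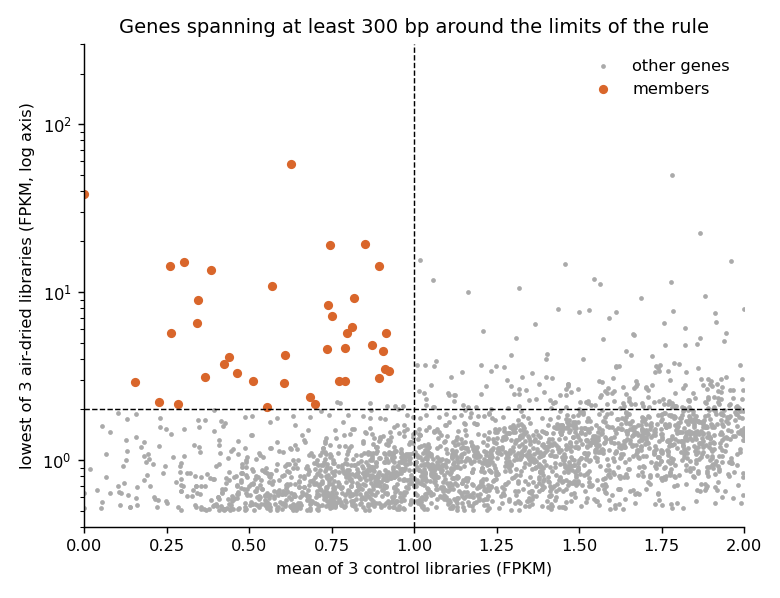
Mean of the 3 control libraries against the lowest of the 3 air-dried libraries, both in FPKM and the second on a log axis, for genes spanning at least 300 bp with a control mean under 2 FPKM and a lowest air-dried value of at least 0.5 FPKM. Dashed lines mark the limits of 1 and 2 FPKM, orange points are the 40 members, and the 7 grey points in their quadrant failed the ratio limit.

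Just inside the control limit lay the chromosome 17 gene at 789284 to 790146, with a control mean of 0.924 FPKM. Next to it came the chromosome 1 gene at 26234150 to 26235708 with 0.914 FPKM, and a chromosome 18 gene (13190051 to 13193336) with 0.911 FPKM. Above it were 217 genes that met every other limit, at any control level, the nearest to it on chromosome 8 (10404891 to 10410650) with a control mean of 1.01 FPKM and an air-dried mean of 3.93 FPKM. Another, on chromosome 9 (9691024 to 9692266), had a control mean of 1.02 FPKM and 17.8, 15.5 and 17.1 FPKM after drying, levels that would place it among the top members. Its control values of 0.571, 1.198 and 1.28 FPKM lie within the range that members also reached.

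Just inside the limit on air-dried values were a chromosome 11 gene (16682065 to 16682838) with a lowest value of 2.07 FPKM and a chromosome 1 locus (47379436 to 47387257) with 2.16 FPKM. The scaffold 815 gene also had a lowest value of 2.16 FPKM. Outside it were 154 genes that met the other limits and had every air-dried value above 0. The nearest was on chromosome 7 (2018830 to 2019798) with a lowest value of 1.999 FPKM. The closest to the ratio limit was a chromosome 17 gene (3251024 to 3251894), whose lowest air-dried value of 2.36 FPKM was 2.03 times its highest control value of 1.16 FPKM. Outside the ratio limit the nearest of the 7 genes was on chromosome 5 (20689950 to 20711416), at a ratio of 1.94. The span limit left out 4 loci, the longest of 259 bp, and 3 of them had spans of 180 bp or less with 23.9 FPKM or more in every air-dried library and 0 in every control.

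Most members were short genes with 1 listed transcript. Spans ran from 532 to 19538 bp with a median of 1397 bp, and 13 members spanned under 1000 bp, 15 from 1000 to under 2000 bp, 9 from 2000 to under 5000 bp and 3 at least 5000 bp. A single transcript was listed for 34 members (85.0%). Among tested genes spanning at least 300 bp the median span was 3633 bp and 24.0% had a single transcript. Among all 16827 nearly silent genes the values were 1310 bp and 89.5%, close to those of the members. Of these genes 9862 were at 0 in every control, so most of that pool had no measured level there, unlike the members. No transcript was marked known for 2 members, or 5%, against 1.97% of the nearly silent genes.

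Genes that met the same ratio and level limits from higher control levels were longer in the median. The 153 with a control mean from 1 to under 10 FPKM had a median span of 1683 bp, 62.1% single-transcript genes and a median ratio of means of 4.03. The 64 with a control mean of at least 10 FPKM had 1986 bp, 53.1% and 2.86. These classes were cut by the same measured values, so the order of the ratios is a description, and the differences in span and transcript number were not tested.

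**Figure D3:**
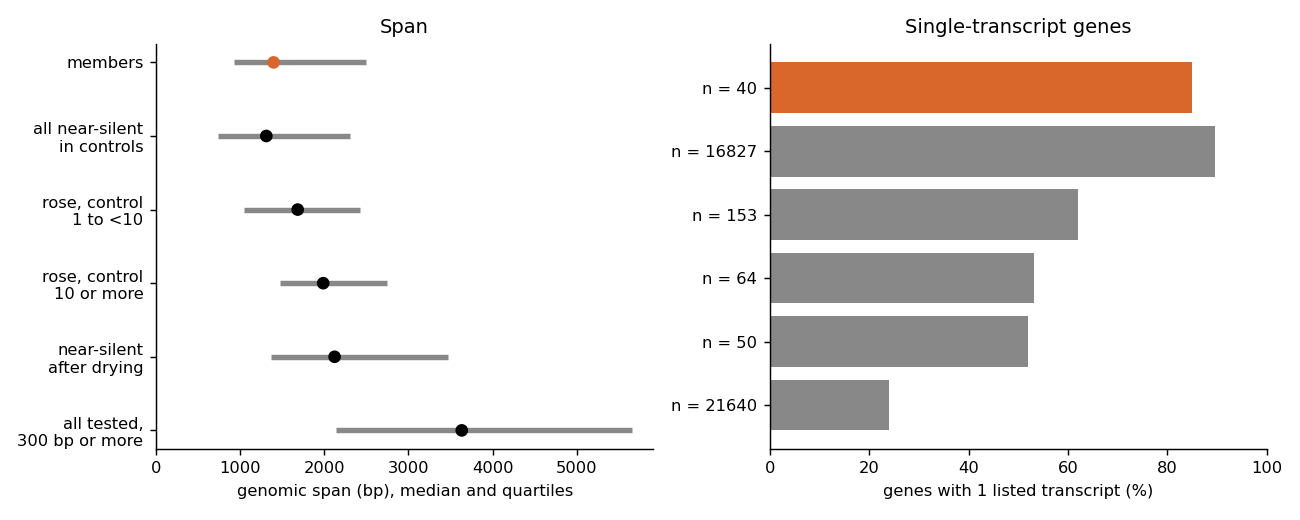
Genomic span in bp (left, median as a point and quartiles as a bar) and the percentage of genes with 1 listed transcript (right) for the members and 5 other classes of genes, with the number of genes in each class. The members, at 1397 bp and 85.0%, lie near all genes that were nearly silent in the controls, at 1310 bp and 89.5%, and apart from all tested genes spanning at least 300 bp, at 3633 bp and 24.0%. Of the genes nearly silent in the controls, 9862 of 16827 were at 0 in every control.

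The members with more than 1 transcript numbered 6, and in 4 of them the leading transcript after drying was assembled from the reads, not one marked known. The same held for 44.7% of the 16284 tested genes of at least 300 bp with several transcripts, a known one among them. In the chromosome 15 member (13824677 to 13831833, minus strand) an assembled transcript over the whole span was under 0.001 FPKM in the 3 controls and had 2.47, 2.73 and 2.29 FPKM after drying. Its known transcripts, confined to 13828697 to 13831833, summed to 0, 0.145 and 0.202 FPKM in the controls and 0.322, 0.189 and 0.224 FPKM after drying. A second assembled transcript (13830509 to 13831833) lies inside those bounds. It had 0, under 0.001 and 0.112 FPKM in the controls and 0.761, under 0.001 and 0.390 FPKM after drying. In the deposited estimates most of the difference at this gene was thus assigned to an assembled model that extends beyond the known ones. The bounds of these models overlap, so the split of reads between them is an estimate, and its reliability was not tested.

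The longest member, on the plus strand of chromosome 7 (2311309 to 2330846), merged 3 known transcripts that do not overlap each other. An assembled transcript over its whole 19538 bp had 0.513 FPKM in control 1, under 0.001 FPKM in control 2 and 0.471 FPKM in control 3 and 2.48, 2.16 and 2.07 FPKM after drying, which was 65.2% to 73.7% of the gene's sum in the air-dried samples. The known transcripts together gave 0.291, 0.622 and 0.468 FPKM in the controls and 0.332, 0.522 and 0.548 FPKM after drying, and the groups overlap in that sum. The chromosome 1 locus at 47379436 to 47387257 also joined known transcripts, 2 in number. Its joining transcript stayed under 0.001 FPKM in the controls and had 0.944, 0.933 and 1.35 FPKM after drying, while the known transcripts summed to 0.965, 0.433 and 0.697 FPKM and to 1.21, 1.41 and 1.33 FPKM.

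In the chromosome 6 member at 14032629 to 14037350 a single assembled transcript held 69.6%, 91.9% and 97.2% of the gene's sum in the 3 air-dried samples. In the chromosome 18 member at 13190051 to 13193336 the sum was even across the air-dried samples, at 3.49, 3.804 and 4.496 FPKM, but its split was not. The known transcript held 54.9%, 23.1% and 100% of it. A chromosome 1 member (24201793 to 24205585) was the only one of the 6 that also met the rule on the sum of its known transcripts, with 0.434, 0.556 and 0.549 FPKM in the controls and 3.04, 2.96 and 3.65 FPKM after drying. The leading transcript was the same in all 3 air-dried libraries in 3 of the 6 members, against 72.0% of those 16284 genes.

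**Figure D4:**
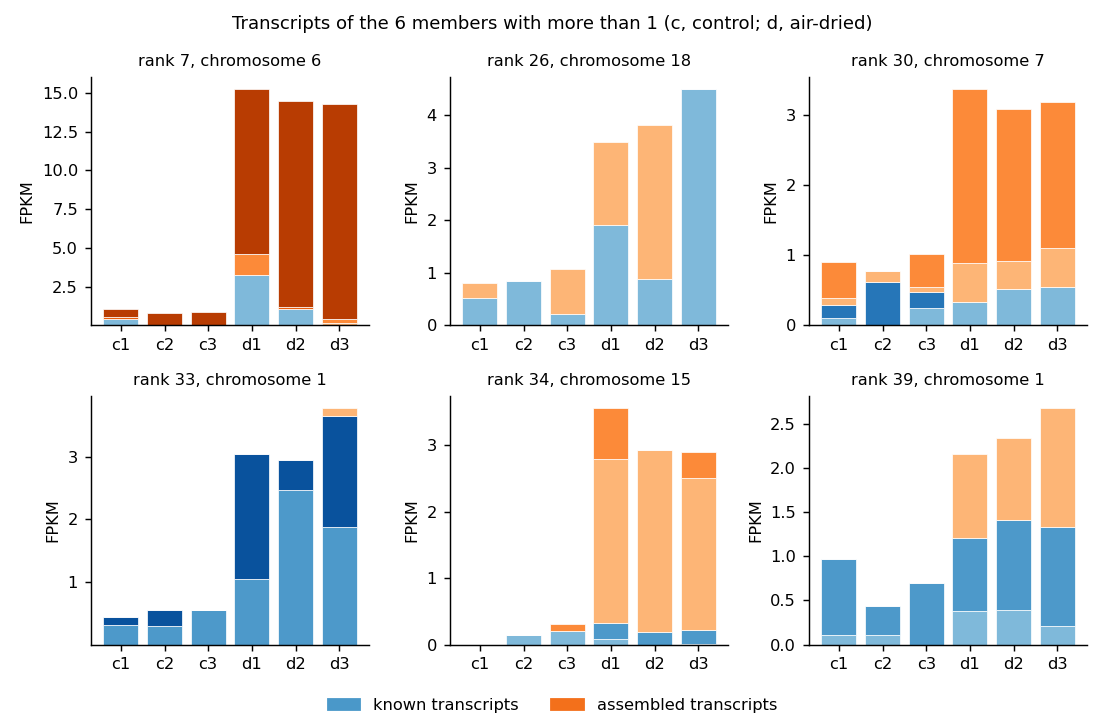
FPKM of each transcript, stacked, in the 3 control libraries (c1 to c3) and the 3 air-dried libraries (d1 to d3) for the 6 members with more than 1 transcript. Blue segments are transcripts marked known and orange segments are transcripts assembled from the reads, and only the member of rank 33 met the rule on its blue segments alone.

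The members lay on 15 numbered chromosomes and 1 scaffold, 24 on the plus strand and 16 on the minus strand. Chromosome 6 held 8 of them (20%), while it held 6.82% of all genes spanning at least 300 bp and 5.74% of the nearly silent ones. Chromosome 1 held 6 (15% against 11.3% of genes), chromosome 18 held 5 (12.5% against 3.44%) and chromosome 17 held 4 (10% against 3.31%). The share on chromosome 6 was picked out after it was seen and was not tested. Beside the adjacent pair, only 1 pair of members had fewer than 34 genes between them, the chromosome 17 loci at 789284 to 790146 and 798970 to 802712, 8823 bp apart on opposite strands with 2 listed genes between them. Both of those genes averaged under 0.1 FPKM in each group.

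The genes next to the members were not themselves chosen by the rule. On the 2 sides of the members lay 77 such genes, of which 34 (44.2%) were under the filter on low values, as were 44.8% of all genes. Of the 43 that were tested, 5 were higher (11.6%, against 5.6% of all tested genes) and 1 was lower (2.33%, against 7.44%). With counts this small the shares are a description. The 5 higher genes include a chromosome 6 locus (1056242 to 1056368) that met every limit of the rule except that on span. It was at 0 FPKM in the controls and passed the filter only through its air-dried level, so nothing is read from its call. They also include a chromosome 1 gene that overlaps its member, and reads of these 2 may not have been told apart. The median log2 difference of the 43 was 0.0969, and 28 of them were above 0.

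The gene after the adjacent pair on chromosome 6 (11415819 to 11416430) averaged 3.18 ± 1.18 FPKM in the controls and 51.03 ± 5.70 FPKM after drying (SD, n = 3 each). It rose by a log2 fold change of 3.67 (SE 0.221, limma adjusted p = 0.00052632) and so reached a higher level than the members beside it. The gene before the pair, at 11369086 to 11371158 on the other strand, had 238 ± 6.12 FPKM and 277 ± 4.43 FPKM (SD, n = 3 each) and did not pass (limma adjusted p = 0.131). Its log2 difference was 0.217 (SE 0.0758), on a level above that of any member.

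Near the start of chromosome 6 an assembled member of 1082 bp on the minus strand (1056792 to 1057873) had 0.452, 0.544 and 0.271 FPKM in the controls and 3.72, 4.19 and 4.12 FPKM after drying. A 127 bp assembled locus 423 bp from it (1056242 to 1056368) had 0 FPKM in every control and averaged 148 ± 60.4 FPKM after drying (SD, n = 3). This locus met every limit of the rule except that on span, so its values are a description and no test of them is offered. FPKM of loci this short are extreme in these files, and its level cannot be compared with that of longer genes. The next gene, a minus-strand one at 1054036 to 1055913, rose from 13.9 ± 1.04 to 27.9 ± 1.56 FPKM (SD, n = 3 each; log2 fold change 0.957, limma adjusted p = 0.0013656). These 3 loci lie between 1054036 and 1057873 and were all higher after drying, but whether they are parts of 1 transcript was not tested.

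The other neighbours that rose had smaller changes. One was a minus-strand gene on chromosome 1 before the member at 10500527 to 10503160, from 42.6 ± 3.10 to 74.4 ± 8.83 FPKM (SD, n = 3 each; limma adjusted p = 0.0075245). Another was the gene after the long chromosome 7 member, from 8.02 ± 1.48 to 15.6 ± 1.79 FPKM (SD, n = 3 each; limma adjusted p = 0.014932). The fifth was the plus-strand gene that overlaps the chromosome 1 locus at 47379436 to 47387257, from 1.46 ± 0.513 to 3.40 ± 0.671 FPKM (SD, n = 3 each; limma adjusted p = 0.037627), and reads of the overlapping loci may not have been told apart. The neighbour that fell lay before the chromosome 1 member at 26234150 to 26235708 and went from 20.2 ± 1.06 to 11.2 ± 0.848 FPKM (SD, n = 3 each; limma adjusted p = 0.0025187), the opposite direction to the member.

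**Figure D5:**
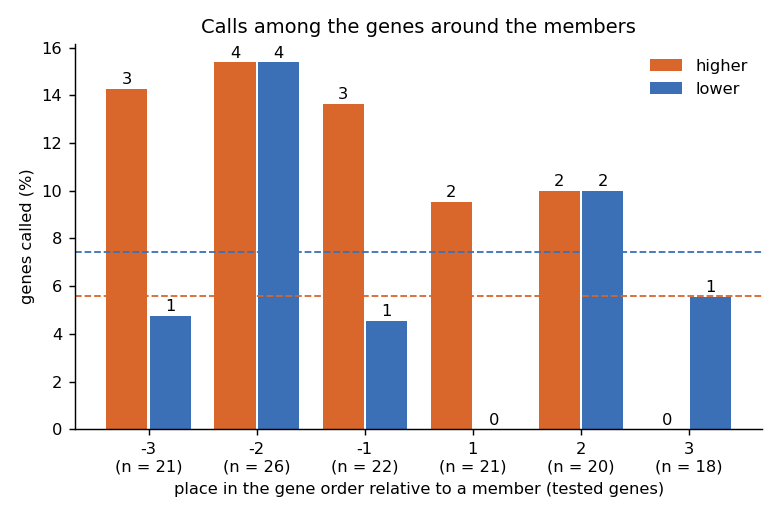
Percentage of tested genes called higher (orange) or lower (blue) at each place in the gene order from 3 genes before to 3 genes after a member, with the number of called genes above each bar and the number tested under it. Dashed lines are the shares of all tested genes, 5.6% higher and 7.44% lower, and the directly adjacent places hold 3 and 2 higher genes and 1 and 0 lower genes.

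In all, 5 members overlapped another listed gene, which bears on how far their reads can be separated. A chromosome 17 member of 1544 bp (1781538 to 1783081) lies inside a merged locus on the same strand (1592013 to 1872050) with 20 transcripts, which had 2.70, 3.51 and 2.86 FPKM in the controls and 11.2, 11.7 and 10.9 FPKM after drying. The member itself had 0.454, 0.207 and 0.377 FPKM and then 10.3, 8.98 and 10.6 FPKM, so the locus and the gene inside it differed in the same direction. The chromosome 17 member at 3251024 to 3251894 lies inside another merged locus on its strand (3071516 to 3259738), which had 18.8, 16.8 and 16.1 FPKM and then 19.7, 14.6 and 16.1 FPKM and whose groups overlap. The chromosome 15 member spans a gene on the other strand that was listed at 0 in all 6 libraries.

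The mirrored rule, with the groups exchanged, was met by 50 genes that were nearly silent after drying. They were 0.294% of the 16996 genes spanning at least 300 bp with an air-dried mean under 1 FPKM. Fewer of them came from high levels: 5 of 50 had every control value at least 5 FPKM, while 18 of the 40 members had every air-dried value at least that high. The nearest values of the groups were at least 4-fold apart in 17 of 50 and in 29 of 40. Of the mirrored genes 52.0% had 1 transcript, and their median span was 2122 bp. These counts come from the same contrast as the rule and are given without a test.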

How the data were processed

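Each library was deposited as a table of FPKM per transcript, made by the authors with FastQC, TopHat and Cufflinks per the submitters' processing notes, which give no versions. The genome build, the annotation and any strand setting are not stated there. Poly(A) RNA was sequenced as 100 bp pairs, per the labels' protocols. FPKM of transcripts sharing a gene identifier were summed (Python 3.11.15, pandas 2.3.3). Genes averaging 1 FPKM or more were tested on log2(FPKM + 1) with limma 3.58.1 in R 4.3.3 (lmFit, eBayes with a trend), 2-sided, with Benjamini-Hochberg adjustment over 22356 genes and a threshold of 0.05. The procedure was checked on simulated data. Values were not rescaled, absolute depth is unknown, and no counting interval is given. Replicate numbers were not used as pairs. Neighbours are the genes directly before and after a member by start position, members left out. Members described singly are the 10 with the highest lowest air-dried value, adjacent members, the 3 longest and the 3 nearest inside each limit, with accessions for the first 2. Others given singly (24201793 to 24205585 on chromosome 1, 1056792 to 1057873 on chromosome 6, 1781538 to 1783081 on chromosome 17) were chosen after their values were seen. The members and lists were chosen with earlier results of these data known. Functional lists, marker lists and promoter motifs could not be applied without names or sequence.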

Additional observations from a re-analysis of the deposited data

How the results depend on the processing

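The rule gave 40 members, and 14 with a control mean under 0.5 FPKM, 94 under 2 FPKM and 18 with every air-dried value at least 5 FPKM. With known transcripts alone it gave 41, of which 33 were shared. Leaving out single libraries gave 48 to 53, with 38 to 40 shared. The mirrored rule gave 50 genes, and 10, 102 and 5 under the same 3 changes and 17 with a ratio of at least 4. Leaving out single libraries gave 54 to 73. The limma counts over all genes, 1253 higher and 1663 lower, fell to 667 and 754 with known transcripts alone. They fell to 667 to 896 higher and 812 to 1130 lower with a library left out, from fewer samples. Changes over 1.5 times came without control 1 (680 and 965), control 2 (667 and 812), control 3 (1105 lower), air-dried 1 (782 and 1102), air-dried 2 (768 and 954) and air-dried 3 (749 higher). All 40 members were called higher, against 11 with a mean of at least 5 FPKM, where 11 were tested, and 38 to 40 with a library left out. Of neighbours, 5 were higher and 1 lower. With known transcripts alone 3 and 0 were called, and without a filter 7 and 2. Without single libraries 3 to 5 were higher, 3 without air-dried 1 or air-dried 2, and 1 was lower in each. The 21 members described by rule kept their direction in all 300 alternatives in which they passed the filter, and their call in 290. Alternatives in which a member fell under the filter are not counted. With known transcripts alone 35 of the 40 members were tested and 33 were called higher. POPTR_0017s01120.r1 and the longest member, on chromosome 7, were among those not tested there. The calls lost among the 300 were those of 4 members. The highest limma adjusted p was 0.26808, for the chromosome 1 locus at 47379436 to 47387257 on known transcripts. The library set as a term, chosen after seeing the data, called 40 members and the same numbers of neighbours, 5 and 1. The replicate numbers were not taken as pairing the libraries, since the labels do not say that they mark a shared plant, batch or day. The deviations from the group means correlated at 0.187, -0.0961 and 0.292 for numbers 1, 2 and 3. Between libraries of different numbers they correlated at -0.345 to 0.160, so these values do not settle whether the numbers mark pairs. The fit with the replicate block called 924 genes higher and 1197 lower, 39 members, and 4 neighbours higher and 1 lower. Causes of these changes were not tested where none is given. No count test was run because the values are FPKM, and without absolute depth the precision of control values under 1 FPKM cannot be stated.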
